A study of Mus with 18 samples.

Results

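Foxq1 (ENSMUSG00000038415) encodes a forkhead box transcription factor, and it was followed here through an injury of the mouse lens as 1 gene of the 55416 in each deposited table. It was chosen by its pattern in wild type (WT) lenses, where no read pair was counted at 0 h and pairs were present at 6 h. The WT counts therefore chose the gene, and they are given below as a description without a test.

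RNA was sequenced from lens epithelial cells (LECs) left on the lens capsule after removal of the fiber cells, a model of cataract surgery, either at once (0 h) or 6 h post cataract surgery (6 h PCS). The 18 libraries fell into 6 groups of 3, which were WT, Egr1KO and FosBcKO at each time, from adult mice of 3 to 5 months labelled C57BL/6. Egr1KO mice carry a systemic Egr1 allele with a neo cassette in exon 2, so every cell of the eye has it. FosBcKO mice carry a Fosb allele with exons 2 and 3 between lox sites and the MLR10 cre transgene, which a modified alpha-A crystallin promoter drives, so the deletion is limited to cells of the lens lineage and adhering cells of other origin keep Fosb. The study operated on mice of both sexes. It lists the Egr1KO stock under a strain name that mixes B6N with another strain. The MLR10 cre line was obtained on FVB/N and then backcrossed to C57BL/6. A part of strain background in the differences between genotypes was not tested. Each library pooled capsules of 5 mice. Between 9609295 and 13871592 pairs were counted on genes in a library, so that 1 pair was worth 0.0721 to 0.104 CPM (counts per 1000000 counted pairs).

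Forkhead factors bind DNA through a conserved winged helix domain, and many of them set the identity of a tissue during development. Foxq1 is known for its role in the hair shaft, where its loss gives the satin coat of the mouse, and in the mucous cells of the stomach, and it is often raised in carcinomas, in which it has been tied to epithelial to mesenchymal transition. Egr1 and Fosb encode immediate early transcription factors, which are induced within minutes to hours of an injury without new protein synthesis. In the RefSeq annotation of GRCm38.p6, Foxq1 lies on chromosome 13 beside 2 further forkhead genes, Foxf2 and Foxc1, with Exoc2 and Hus1b on its other side. The deposited tables give Ensembl IDs without names, and the RefSeq table matched 0 of them, so the levels of these neighbours, of the targeted genes Egr1 and Fosb and of cell type markers were not analysed here. The genotype and cell type labels were thus not checked by marker genes, and Egr1KO and FosBcKO name the libraries so labelled.

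Foxq1 went from no count in WT at 0 h to the highest level of any group in WT at 6 h PCS. The 3 WT libraries at 0 h held 0, 0 and 0 read pairs. A count of 0 in all of them allows a level of up to 0.0938 CPM over the group, taken as 3 counts of the summed depth. At 6 h PCS, WT libraries 1 to 3 held 34, 76 and 32 pairs, or 3.20, 7.66 and 3.05 CPM. The WT mean at 6 h was 4.64 ± 2.62 CPM (SD, n = 3), which is at least 15.9-fold higher than 3 counts in the smallest WT library at 0 h.

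Every WT library at 6 h lay above every WT library at 0 h. Of 19787 genes with at least 15 counts over the 6 WT libraries, 25.9% showed such a separation, and nothing is read from it for Foxq1 because the rule chose on these values. WT library 2 stood above the other two at 6 h. Its exact Poisson 95% interval of 6.04 to 9.59 CPM did not overlap those of library 1, 2.22 to 4.48 CPM, and of library 3, 2.09 to 4.31 CPM. These intervals cover counting error only. No molecular identifiers were stated, so copies of the same molecule may be counted more than once and the intervals may be too narrow.

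**Figure D1:**
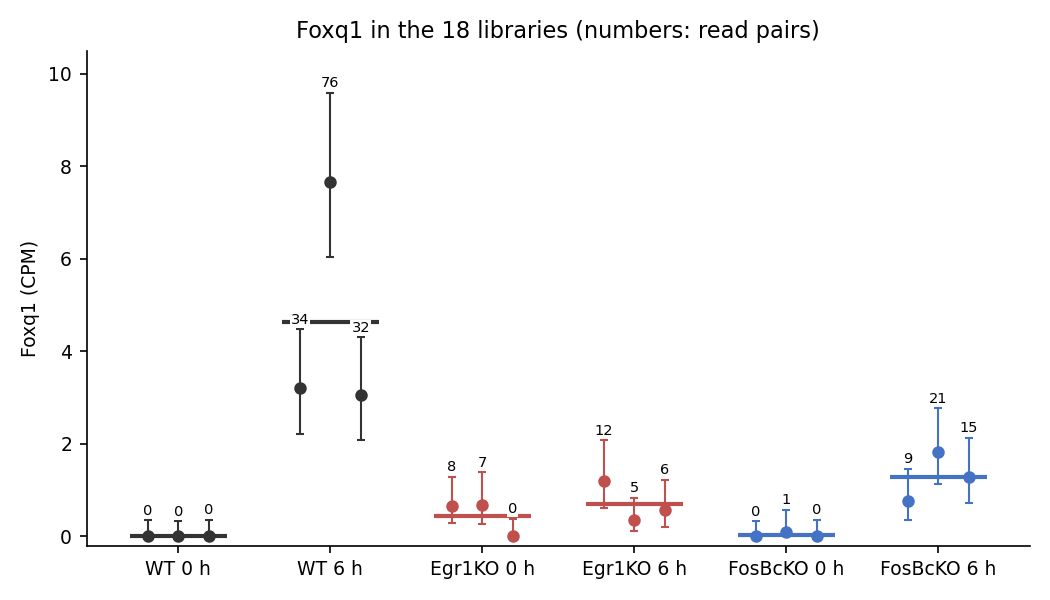
Foxq1 in each of the 18 libraries in CPM, with exact Poisson 95% intervals for counting error, the number of read pairs above each interval and a bar at each group's mean. The 3 WT libraries at 6 h PCS sit between 3.05 and 7.66 CPM, above all other libraries, of which the highest is FosBcKO library 2 at 6 h with 1.81 CPM.

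In FosBcKO, Foxq1 was close to absent at 0 h and present in every library at 6 h PCS, at a lower level than in WT. Libraries 1 to 3 held 0, 1 and 0 read pairs at 0 h. At 6 h they held 9, 21 and 15 pairs, or 0.773, 1.81 and 1.29 CPM, with a mean of 1.29 ± 0.521 CPM (SD, n = 3). All 3 libraries at 6 h exceeded all 3 at 0 h, which held for 21.6% of the 20040 genes with at least 15 counts over these libraries. The summed counts of 45 and 1 pairs gave a ratio of 40.2, with an exact 95% counting interval of 6.86 to 1624, so the size of the fold is poorly fixed by the single pair at 0 h.

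In Egr1KO, Foxq1 already had counts in 2 of 3 libraries at 0 h, and a change by 6 h PCS was not resolved. Libraries 1 to 3 held 8, 7 and 0 pairs at 0 h, or 0.653, 0.672 and 0 CPM. At 6 h they held 12, 5 and 6 pairs, or 1.19, 0.360 and 0.565 CPM. The groups overlapped, with means of 0.442 ± 0.383 CPM at 0 h and 0.704 ± 0.431 CPM at 6 h (SD, n = 3 each). The ratio of the summed counts was 1.43, with an exact 95% counting interval of 0.715 to 2.95, which includes 1.

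Too few pairs fell on Foxq1 in the knockouts for the test across genes. The filter of edgeR removed Foxq1 from the contrast of 6 h against 0 h in both knockouts. Of the genes that stayed in the FosBcKO contrast, 13.1% were called, which needed more than a 2-fold change and an FDR (false discovery rate) no higher than 0.05. Without the filter, Foxq1 rose in FosBcKO by 4.90 on the log2 scale (SE 1.54, FDR 0.0151, edgeR quasi-likelihood F-test), a setting in which 7.79% of genes were called. The call depended on the libraries. With the filter, it was also made without FosBcKO library 2 at 0 h (edgeR FDR 0.0367, 1743 of 16405 genes called). The same held without library 1 at 6 h (edgeR FDR 0.0405, 978 of 15879 genes called). It was missed without library 1 or library 3 at 0 h (edgeR FDR 0.0729 and 0.0738). The gene was again removed without library 2 or library 3 at 6 h. Where 1 library was left out, Foxq1 thus passed the filter only through libraries 2 and 3 at 6 h, where it was high. Calls made in those fits are a description and give no support. In Egr1KO the unfiltered log2 fold change was 0.70 (SE 1.34, edgeR FDR 0.755), and 6.94% of genes were called.

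Over both knockouts, Foxq1 was 0.760 CPM higher at 6 h PCS than at 0 h (exact permutation test over 12 libraries, two-sided, times exchanged inside each genotype, 400 arrangements, p = 0.03). Leaving out any 1 of the 3 FosBcKO libraries at 0 h gave an exact permutation p of 0.06. Within a single genotype 3 libraries against 3 cannot give a p below 0.1. That smallest value was reached in FosBcKO, with a difference of 1.26 CPM (exact permutation test, p = 0.1), whereas the difference of 0.263 CPM in Egr1KO gave p = 0.6 in the same exact permutation test.

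The rise was 0.995 CPM larger in FosBcKO than in Egr1KO. An exact two-sided permutation test of genotype within time, chosen after the counts were seen, gave p = 0.045 over 400 arrangements. Its null is no genotype difference at either time, so it is not specific to a difference in the rise. Of the 0.995 CPM, 0.588 lay at 6 h and 0.407, the higher level of Egr1KO, at 0 h. With TMM-scaled library sizes the difference was 0.930 CPM and the exact permutation p was 0.1, and 9 of the 12 sets that left out 1 library gave a p above 0.05, so the call, though not the direction of the difference, depended on the scaling and on single libraries.

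At 6 h PCS both knockouts lay below WT, and these differences are described without a test because WT chose the gene. The lowest WT library, at 3.05 CPM, was above the highest of the 6 knockout libraries, at 1.81 CPM. The WT mean was 6.59 times that of Egr1KO, and the ratio of summed counts, 142 against 23 pairs, was 6.89. The WT mean was 3.59 times that of FosBcKO, and the ratio of 142 to 45 pairs was 3.55. WT library 2 carried part of both ratios of means, which without it were 4.44 and 2.42.

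FosBcKO and Egr1KO were not distinguished from each other at 6 h. The log2 fold change of FosBcKO against Egr1KO was 0.79 (SE 0.78, FDR 0.823, edgeR quasi-likelihood F-test), and 1.00% of genes were called in this contrast. Alternative fits did not call Foxq1 either, but some called almost no gene. With a replicate block 4 of 15885 genes were called, and without FosBcKO library 2 it was 5 of 16750. Without Egr1KO library 3 it was 7 of 16886, and without FosBcKO library 1 it was 13 of 16539. A missed call in these fits says little about Foxq1. The most genes, 527 of 32031, were called without the filter. The libraries overlapped, since Egr1KO library 1 at 1.19 CPM was above FosBcKO library 1 at 0.773 CPM. The ratio of summed counts was 1.94 with a counting interval of 1.15 to 3.36, which leaves out the spread between libraries that the edgeR test includes.

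In order of the mean, the groups ran from WT at 6 h (4.64 CPM) through FosBcKO at 6 h (1.29), Egr1KO at 6 h (0.704), Egr1KO at 0 h (0.442) and FosBcKO at 0 h (0.0346) to WT at 0 h, where no pair was counted. Only the first step, from WT to FosBcKO at 6 h, separated neighbouring groups without overlap. At 0 h, 15 of the 16 pairs counted for Foxq1 came from Egr1KO libraries 1 and 2. Egr1KO library 3, with 0 pairs, could not be set apart from the WT libraries at this depth. Its 0 pairs allow up to 0.312 CPM, taken as 3 counts, or 0.384 CPM by the exact Poisson 95% interval.

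Other properties of the libraries moved with time as well. The percentage of pairs that fell outside any annotated gene was 15.2% to 19.8% in WT at 0 h and 23.6% to 27.4% at 6 h. In Egr1KO this share was 9.09% to 13.5% at 0 h and 20.03% to 24.0% at 6 h, and in FosBcKO it was 8.03% to 20.9% and 23.4% to 30.5%. Its part in the Foxq1 counts was not tested. As these are bulk samples, fewer cells with Foxq1 and less Foxq1 RNA per cell cannot be told apart, nor can LECs be told from adhering cells of other types.

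Foxq1 stood at the upper end of the genes with the same WT pattern. Of 30754 genes with no count in any WT library at 0 h, 411 had at least 1 pair in every WT library at 6 h, 10 had at least 10, and Foxq1 alone had at least 20. Its lowest WT library at 6 h held 32 pairs, and the next gene by this measure, ENSMUSG00000102148, had 16. These are the WT values that the rule used. By the mean in WT at 6 h the 2 genes were close, at 4.64 ± 2.62 CPM (SD, n = 3) for Foxq1 and 4.44 CPM. Just outside the rule, 12 genes had 1 to 3 pairs summed over the WT libraries at 0 h and at least 20 in every WT library at 6 h. The highest of their lowest WT counts at 6 h was 85.

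The knockout levels of the 10 genes varied. The mean CPM of Foxq1 at 6 h in Egr1KO was 0.152 of that in WT, the third lowest of the 10, whose ratios ran from 0.0837 to 4.48 with a median of 0.417. In FosBcKO the Foxq1 ratio was 0.279, the fourth lowest, with a range of 0.133 to 4.95 and a median of 0.384. In each knockout 8 of the 10 genes lay below 1. The set was picked for counts in the same WT libraries, which favours ratios below 1, so nothing is read from this. At 0 h, 5 of the 10 genes had no count in Egr1KO, and the 15 pairs of Foxq1 there were the most of the set, ahead of a gene with 7.

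**Figure D2:**
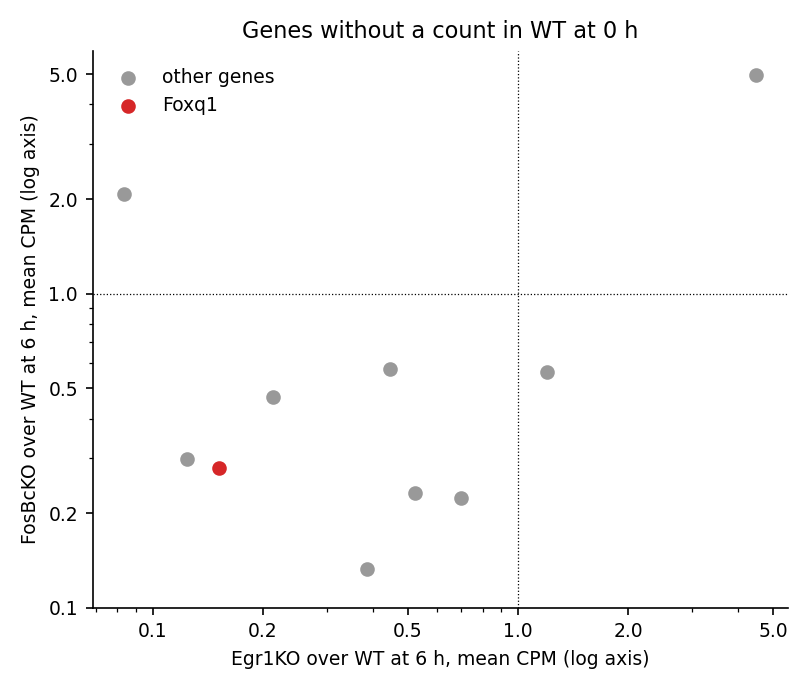
Ratio of mean CPM at 6 h PCS in Egr1KO over WT (horizontal, log axis) and in FosBcKO over WT (vertical, log axis) for the 10 genes with no count in WT at 0 h and at least 10 pairs in every WT library at 6 h. Dotted lines mark a ratio of 1. Foxq1, in red, lies at 0.152 and 0.279, below both lines, as do 6 of the other genes. The genes were picked on the same WT libraries, which favours ratios below 1.

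The 2 genes whose profile was most like that of Foxq1 had counts in every WT library at 0 h. Likeness was the root mean square difference of log2(CPM + 1), centred per gene, over 18 libraries and 17800 genes that had at least 10 pairs in 3 libraries. The nearest, ENSMUSG00000004043, was at a distance of 0.423, against a median of 0.939 over all genes compared. It had 31.8 ± 3.72 CPM in WT at 6 h, 20.8 ± 2.21 in FosBcKO and 14.5 ± 3.17 in Egr1KO (SD, n = 3 each), the same order as Foxq1 at 6 h. In Egr1KO it differed from Foxq1, whose libraries overlapped between the times. Its highest Egr1KO library at 0 h had 7.34 CPM and its lowest at 6 h 10.9 CPM. Egr1KO was its lowest group at 0 h, but the highest for Foxq1. Unlike Foxq1, ENSMUSG00000004043 was well above 0 in WT at 0 h, with 8.60 ± 1.10 CPM (SD, n = 3). Over the 10 nearest genes, the WT mean at 0 h ran from 0.244 CPM (ENSMUSG00000117780, rank 7) to 54.8 CPM (ENSMUSG00000025178, rank 9). A level near 0 there was thus not particular to Foxq1 among them.

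The second nearest, ENSMUSG00000060093, lay at 0.438, but over the 9 libraries at 6 h alone it ranked only 45, against 7 for the nearest gene. Its level was 11.0 ± 2.38 CPM in WT at 6 h, 7.95 ± 0.611 in FosBcKO and 6.61 ± 0.910 in Egr1KO, and 3.18 ± 1.15 CPM in WT at 0 h (SD, n = 3 each). In both genes, as in Foxq1, WT library 2 was the highest of the 18. These libraries also share the time and genotype contrasts, and the likeness is a description.

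**Figure D3:**
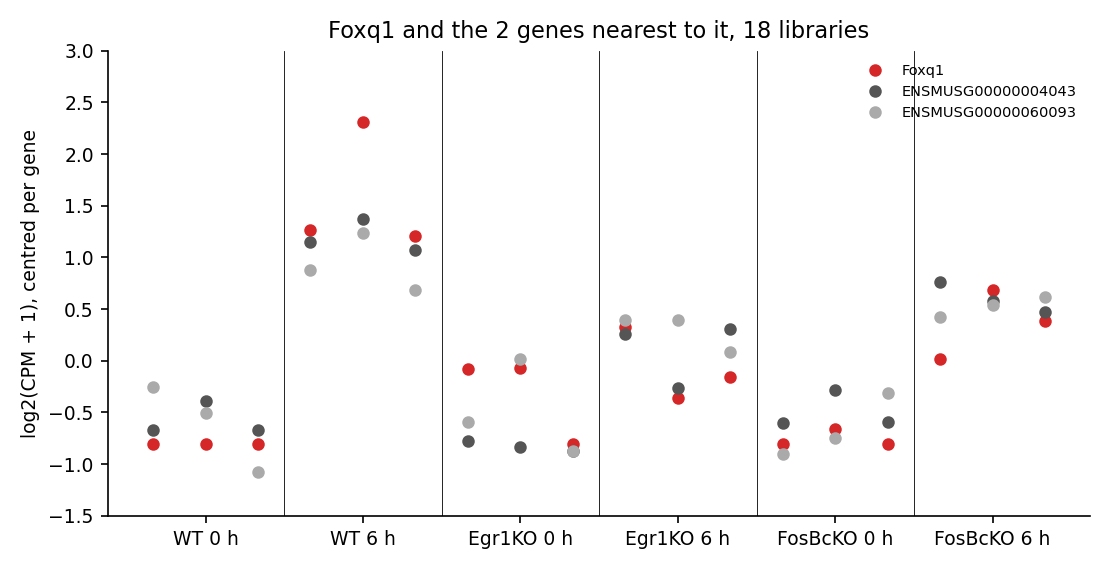
log2(CPM + 1), centred on each gene's mean over the 18 libraries (vertical), for Foxq1 and the 2 genes nearest to it, with the 3 libraries of each group side by side (horizontal). WT library 2 at 6 h PCS is the highest point of each gene, and both knockouts lie below WT at 6 h.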

How the data were processed

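The authors prepared stranded, ribodepleted, paired-end libraries, aligned them with Hisat2 and used HTSeq-count (union mode) to assign pairs to Ensembl genes. The processing notes name GRCm39 and the study's methods GRCm38, so no coordinates are given. The deposited values are raw counts, from which library totals without HTSeq's summary lines (34.4% to 48.0% of pairs) gave CPM. Gene names were used only where the sources for this work pair them with an ID, which left Foxq1. The planned forkhead family, gene list, marker and targeted gene results were therefore not analysed here. Such lists had been viewed by names from the study's supplementary tables and were then set aside.

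Tests used edgeR 4.0.16 (filterByExpr, TMM, robust dispersions, Benjamini-Hochberg FDR) in R 4.3.3, with DESeq2 1.42.0 as an alternative, and exact permutation tests in Python 3.11.15. The edgeR tests were tested on simulated data. Named genes are Foxq1, the genes ranking nearest to it and the runner-up to its WT pattern, the last chosen after its values were seen. The gene and the comparisons were chosen with earlier results of these data known.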

Additional observations from a re-analysis of the deposited data

Results flagged for a closer look

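The change in Foxq1 from 0 h to 6 h PCS was 0.995 CPM larger in FosBcKO than in Egr1KO (exact two-sided permutation test of genotype within time, p = 0.045, 12 libraries). That test is not specific to the change, since its null is no genotype difference at either time. All 3 FosBcKO libraries at 6 h exceeded those at 0 h, whereas the Egr1KO libraries overlapped. The test was chosen after the counts were seen, and its call was lost with another scaling.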

How the results depend on the processing

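The planned edgeR fit could not test Foxq1 between 6 h and 0 h in either knockout. It was tested in 2 of 13 alternatives in Egr1KO, with log2 fold changes of 0.70 without the filter and 0.73 in a fit of all 18 libraries. In FosBcKO it was tested in 6 of 13, and the log2 fold change without 1 library ran from 4.41 to 6.87. Of these 6, 4 were called. These were the fit without the filter (2459 of 31571 genes called) and the fit of 18 libraries (1747 of 17469). The others were those without library 2 at 0 h (1743 of 16405) and without library 1 at 6 h (978 of 15879). In the fits without 1 library, Foxq1 passed the filter only through its high counts at 6 h, so their calls give no support. The fit of 18 libraries also held the WT libraries that chose the gene, so it is not independent of the rule. FosBcKO against Egr1KO at 6 h was never called in 13 alternatives (4 of 15885 to 527 of 32031 genes called). The estimate was 0.39 to 1.39 without 1 library and 0.85 with a replicate block. The difference over both knockouts was 0.630 to 0.890 CPM without 1 library (exact permutation p from 0.025 to 0.06), and with the replicate block, by flipping signs within same-numbered pairs, 0.760 CPM (exact permutation p = 0.0625). Same-numbered 0 h and 6 h libraries correlated above 0.1 in every pair in WT but in 3 of 6 knockout pairs, below the mark set for treating the knockout numbers as pairs. Yet 5 of the 6 knockout libraries at 0 h correlated best with their own number, a hint of pairing from the data, and with it the call over both knockouts was lost. The larger change in FosBcKO was 0.734 to 1.25 CPM without 1 library and 0.930 CPM with TMM-scaled library sizes (exact permutation p = 0.1), where the cause was not tested. Without 1 library, the WT mean at 6 h ran from 3.13 to 5.43 CPM, its ratio to Egr1KO from 4.44 to 10.02 and its ratio to FosBcKO from 2.42 to 4.50. Of the 10 genes nearest to Foxq1, 6 stayed among the nearest 10 with a pseudocount of 0.5 and 2 over the 9 libraries at 6 h.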
